A study of Mus musculus with 8 samples.

Results

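Liver mRNA levels of 10 plasma carrier genes, albumin (Alb), transthyretin (Ttr) and 8 others, were examined in diet-induced obese (DIO) mice given IXA4, a compound that activates the IRE1/XBP1s arm of the unfolded protein response. The genes were chosen by name for what their proteins do, with earlier results of these data known, and all 10 were found among the 26166 gene symbols of the count table. RNA-seq had been made from whole livers of 4 IXA4-treated and 4 vehicle-treated mice. All were male C57BL/6N mice, 14 weeks old when bought, kept on a diet with 60% of calories from fat for 3 weeks before dosing. They then received IXA4 at 50 mg/kg or its vehicle once a day into the peritoneum over 8 weeks. Every mouse was thus obese and injected, and no lean group was used here. Total counts ran from 16986915 to 18390185 per library.

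Plasma carriers are made mostly by hepatocytes and secreted through the endoplasmic reticulum, the compartment that XBP1s remodels. Albumin binds fatty acids, bilirubin, drugs and hormones. Retinol leaves the liver bound to retinol-binding protein (Rbp4), which circulates in a complex with transthyretin, itself a thyroxine carrier. Gc carries vitamin D metabolites, Afm vitamin E, Serpina6 corticosteroids and Serpina7 thyroxine. Albumin, transthyretin and retinol-binding protein are classical negative acute phase proteins, whose synthesis is known to fall in inflammation, while proteins such as orosomucoid and serum amyloid A rise.

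The proximal promoters of 4 carriers are shown because liver promoters of this class are known for elements of HNF1, the hepatocyte homeobox factor. They were also chosen to include the most abundant carrier (Alb) and Gc, of the same gene family and chromosome. Serpina7 was the most variable carrier, and Ambp the one whose groups did not overlap. Each is 200 bases, from 150 before to 50 after the RefSeq transcription start. That start lay 19 bases from the gene start of GENCODE vM1 for Alb, 133 for Gc, 0 for Serpina7 and 627 for Ambp. The Ambp window thus lies inside the gene as drawn by GENCODE vM1. Sequences came from the RefSeq table for GRCm38.p6 and were placed by an exact, unique match on NCBIM37, the assembly of the count table. Capitals mark the HNF1 half-site GTTAAT on the printed strand. Alb lies at chr5:90889746-90889945 on the plus strand, Gc at chr5:89886874-89887073, Serpina7 at chrX:135619726-135619925 and Ambp at chr4:62815157-62815356, these 3 on the minus strand.
Alb: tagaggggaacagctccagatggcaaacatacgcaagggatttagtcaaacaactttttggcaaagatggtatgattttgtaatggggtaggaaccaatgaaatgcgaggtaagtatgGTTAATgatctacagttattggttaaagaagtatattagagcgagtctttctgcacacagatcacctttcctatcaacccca
Gc: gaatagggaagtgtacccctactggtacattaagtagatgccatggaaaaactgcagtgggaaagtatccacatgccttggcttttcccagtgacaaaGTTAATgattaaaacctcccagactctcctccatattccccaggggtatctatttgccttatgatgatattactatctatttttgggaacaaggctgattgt
Serpina7: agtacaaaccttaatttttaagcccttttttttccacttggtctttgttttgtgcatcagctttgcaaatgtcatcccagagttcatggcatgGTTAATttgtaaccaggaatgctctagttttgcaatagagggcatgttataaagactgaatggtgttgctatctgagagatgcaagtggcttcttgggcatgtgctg
Ambp: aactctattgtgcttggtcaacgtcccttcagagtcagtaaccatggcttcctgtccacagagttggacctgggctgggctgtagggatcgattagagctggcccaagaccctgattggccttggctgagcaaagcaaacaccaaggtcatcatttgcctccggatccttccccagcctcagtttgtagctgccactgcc

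Promoter windows of 300 bases, from 250 before to 50 after the start, were listed for 8 of the 10 carriers, all but Ttr and Serpina6. Rbp4 and Serpina7 had 2 windows each, and for every gene only the first listed was used. On either strand GTTAAT was present in 4 of these 8 (Alb, Gc, Afm and Serpina7) and in 7.20% of 27025 mouse promoters. The C/EBP pattern TTNNGNAA was in 6 of 8 and in 40.7% of promoters, CCAAT in 6 of 8 and 37.9%, and TATAAA in 2 of 8 and 14.2%. Neither the XBP1 core ACGTG (19.7% of promoters) nor the STAT pattern TTCNNNGAA (8.47%) was found in a carrier window. Of 19 promoters of positive acute phase genes, 3 held GTTAAT, 14 TTNNGNAA, 1 CCAAT, 0 ACGTG and 5 TTCNNNGAA. No sites of different motifs overlapped in the carrier windows. A letter match is a description and not evidence of binding.

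None of the 10 carriers passed the test between IXA4 and vehicle. In edgeR's quasi-likelihood fit of 12427 genes at an adjusted p of 0.05, 452 genes were higher with IXA4 (3.64%) and 123 lower (0.990%), together 4.63%. These totals fell to 261 and 43 without vehicle replicate 1 and moved by over 1.5 times without other single libraries too, as set out under the processing alternatives. DESeq2 called 892 genes (7.18%) and likewise 0 of the 10. At an unadjusted p under 0.05 stood 1 carrier (Ambp) with either tool, against 19.2% of all genes with edgeR. In 1 of 10 (Ambp again) the 4 IXA4 livers did not overlap the 4 vehicle livers in CPM (counts scaled to a normalized library of 1000000), against 12.7% of all genes. A share of 1 in 10 was not above either background. The log2 fold change was positive in 4 carriers and negative in 6, with a median of -0.06 beside -0.01 over all genes, and adjusted p ran from 0.226 to 0.885.

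The estimates were narrow for most carriers. In 9 of 10, all but Serpina7, the 95% interval of the fold change lay within 1.5-fold in either direction, compared with 52.9% of all genes tested. Over these 9 genes the interval bounds ran from 0.715-fold to 1.38-fold. The share over all genes takes in genes of every level and was not matched to the abundance of the carriers, so the 2 shares are not like for like.

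**Figure D1:**
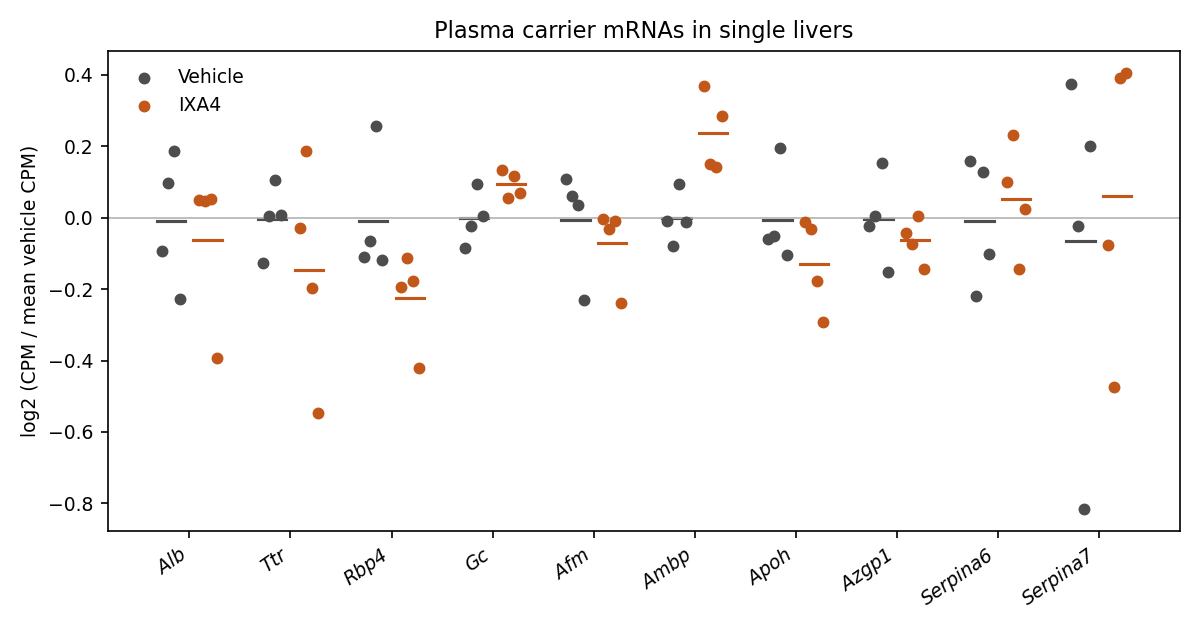
Each point is 1 mouse, plotted as the log2 ratio of its CPM to the mean vehicle CPM of that gene (y axis) for the 10 carriers (x axis), with bars at the group means of the log2 ratios. Only for Ambp do all 4 IXA4 points lie above all 4 vehicle points, and Serpina7 has the widest scatter.

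Albumin, the main carrier of fatty acids in blood, is encoded at chr5:90889915-90905629 (NCBIM37, GENCODE vM1, plus strand). It had the highest count of all genes in 8 of 8 libraries. In the vehicle livers, replicates 1 to 4, it stood at 82455, 94180, 100184 and 75076 CPM, and in the IXA4 livers at 91097, 90811, 91234 and 66961 CPM. The groups overlapped, and replicate 4 was lowest in each. Replicate numbers are those of the count columns, and they do not pair mice between the groups. Its reads made up 7.91% to 9.53% of all counts with vehicle and 6.65% to 9.18% with IXA4. The log2 fold change was -0.05 (SE 0.14, 95% interval -0.36 to 0.26, edgeR adjusted p = 0.885, two-sided exact permutation p = 0.714). Its sign was not fixed: without IXA4 replicate 4 the log2 fold change was 0.05 and without vehicle replicate 3 it was 0.03, neither past the threshold.

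Afm (chr5:90947958-90982569, plus strand) and Gc (chr5:89846549-89886790, minus strand) belong to the same gene family as Alb and lie on the same chromosome. Afamin, a vitamin E carrier, was at 275.5, 266.6, 261.5 and 217.7 CPM with vehicle and at 254.6, 249.9, 253.8 and 216.4 CPM with IXA4. Again replicate 4 was lowest in each group, and the groups overlapped (log2 fold change -0.07, SE 0.10, edgeR adjusted p = 0.771). Gc, the vitamin D-binding protein and a scavenger of actin, was at 7403, 7734, 8385 and 7885 CPM with vehicle and 8607, 8159, 8516 and 8240 CPM with IXA4. Only vehicle replicate 3 lay within the IXA4 range. The log2 fold change of Gc was 0.09 (SE 0.10, 95% interval -0.12 to 0.31, edgeR adjusted p = 0.664, exact permutation p = 0.0857). The coefficient of variation among the IXA4 mice was 2.56% for Gc, beside 14.2% for Alb and 20.8% for Ttr.

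Transthyretin and Rbp4 were both lower on average with IXA4, without passing the test. Ttr (chr18:20823751-20832825, plus strand) stood at 5482, 6015, 6445 and 6020 CPM with vehicle and at 5877, 6822, 5231 and 4099 CPM with IXA4. The IXA4 livers held both the highest and the lowest value. The difference was, as a log2 fold change, -0.12 (SE 0.15, 95% interval -0.44 to 0.19, edgeR adjusted p = 0.703). Without IXA4 replicate 4 it was -0.0034 (adjusted p = 0.995).

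Rbp4, the carrier of retinol (chr19:38191110-38199811, minus strand), was at 3792, 3906, 4888 and 3770 CPM with vehicle and 3577, 3779, 3615 and 3056 CPM with IXA4. Of the 4 IXA4 livers 3 lay below every vehicle liver and 1 overlapped. The log2 fold change of -0.22 (SE 0.12, 95% interval -0.48 to 0.04, edgeR adjusted p = 0.353, exact permutation p = 0.0571) was the most negative of the 10. Leaving out vehicle replicate 3 changed it to -0.11 (adjusted p = 0.665). The ratio of Ttr to Rbp4 CPM, whose proteins travel together, averaged 1.48 ± 0.12 with vehicle and 1.56 ± 0.21 with IXA4 (SD, n = 4 each), and ran from 1.32 to 1.60 and from 1.34 to 1.81, so the groups overlapped.

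Ambp was the carrier furthest toward higher expression with IXA4. The gene (chr4:62804309-62815833, minus strand) encodes a precursor split into a heme-binding lipocalin and bikunin, the light chain of inter-alpha-trypsin inhibitors. Vehicle livers were at 2631, 2504, 2825 and 2622 CPM and IXA4 livers at 3415, 2939, 2918 and 3226 CPM, so that the lowest IXA4 liver was above the highest vehicle liver. This gave a log2 fold change of 0.24 (SE 0.10, 95% interval 0.02 to 0.46). The edgeR p was 0.0375 before and 0.226 after adjustment over all genes, with 0.104 adjusted in DESeq2. The exact permutation p was 0.0286, the smallest that 4 against 4 can give. Without any single library its adjusted p stayed over the threshold.

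Apoh, which binds anionic phospholipids, and Azgp1, a zinc-binding glycoprotein known for mobilizing lipid, showed little difference. Apoh (chr11:108204668-108275710, plus strand) was at 2981, 3000, 3558 and 2891 CPM with vehicle and 3082, 3038, 2751 and 2538 CPM with IXA4. Vehicle replicate 3 was the highest and IXA4 replicates 3 and 4 were the lowest, for a log2 fold change of -0.12 (SE 0.11, edgeR adjusted p = 0.603). Azgp1 (chr5:138422749-138431461, plus strand) ranged from 1005 to 1240 CPM with vehicle and from 1011 to 1120 CPM with IXA4, entirely inside the vehicle range (log2 fold change -0.06, SE 0.10, edgeR adjusted p = 0.788). The sign for Azgp1 turned, to 0.0033, without vehicle replicate 3.

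Of the 2 hormone-binding serpins, Serpina7 was the least abundant carrier. Serpina6, corticosteroid-binding globulin (chr12:104884840-104895422, minus strand), was at 482.1, 370.9, 472.4 and 402.5 CPM with vehicle and 462.9, 507.3, 391.0 and 439.3 CPM with IXA4, values that overlapped (log2 fold change 0.06, SE 0.12, edgeR adjusted p = 0.830). Serpina7, thyroxine-binding globulin, on the X chromosome (chrX:135613796-135619775, minus strand), was at 76.6, 58.1, 33.5 and 67.9 CPM with vehicle and 56.0, 42.5, 77.5 and 78.3 CPM with IXA4. Both groups spanned about the same range. Its log2 fold change was 0.11 (SE 0.28, 95% interval -0.54 to 0.75, edgeR adjusted p = 0.876), an interval too wide to exclude a difference of 1.5-fold. Leaving out vehicle replicate 3 changed it to -0.08.

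Set per exon length, the vehicle livers gave an order from Alb (43061 CPM per kb) through Ttr (4914), Gc (4713), Rbp4 (3153), Apoh (1949), Ambp (1878), Azgp1 (849), Serpina6 (245) and Afm (84.0) to Serpina7 (24.1 CPM per kb). Ttr and Gc overlapped, from 4497 to 5287 and from 4443 to 5033, as did Apoh and Ambp, from 1814 to 2232 and from 1777 to 2005. The other neighbours in that order did not overlap with vehicle. Each length joined all exons that GENCODE vM1 lists for the gene, so the order of near neighbours depends on that annotation. With IXA4 the mean of Ambp, 2218 CPM per kb (2071 to 2424), stood above that of Apoh, 1789 (1592 to 1934), and Ambp then overlapped Rbp4 (2356 to 2914).

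**Figure D2:**
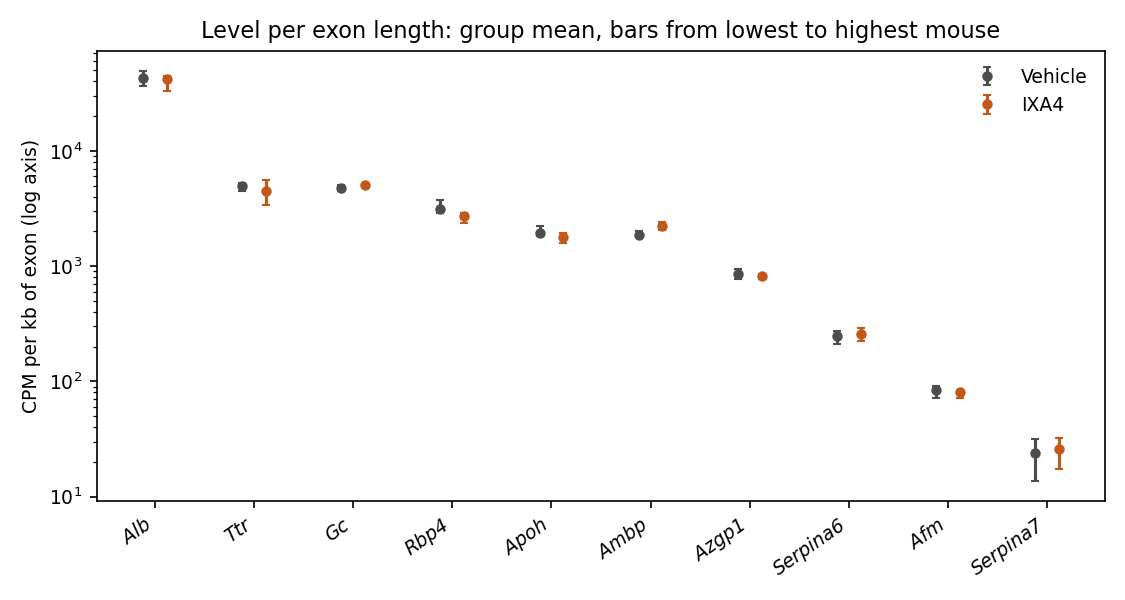
Mean CPM per kb of exon (log y axis) of the 10 carriers in order of the vehicle mean, with bars from the lowest to the highest of 4 mice, vehicle in grey and IXA4 in orange. The levels run from 43061 for Alb to 24.1 for Serpina7 with vehicle, and the groups lie close together at every gene.

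Several carriers varied in parallel among mice, though part of that pattern rested on the most extreme mice. Each value was taken as the difference of its log2 CPM from its group mean, over the 8 mice, which share library, depth and scaling. Of 45 gene pairs 31 had a positive r. The share among pairs of other genes was not computed, so this count cannot be called particular to the carriers. Among Alb, Ttr, Rbp4, Afm, Apoh and Azgp1, a set picked after the values were seen, all 15 pairs were positive, with a median of 0.73 and the highest at 0.92 for Rbp4 and Apoh. Serpina7 was positive with 0 of the 9 others, with a median of -0.59 and down to -0.90 with Apoh. Leaving out the 2 mice farthest from the median of the first gene of a pair gave 11 positive pairs of 15 in that set. The 4 that turned negative were those of Afm with Alb (-0.92), Apoh (-0.67), Azgp1 (-0.52) and Ttr (-0.15). Serpina7 then remained negative with 6 of 9 and was positive with Afm (0.82), Ambp (0.54) and Gc (0.32). With 8 mice these are descriptions without a test.

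**Figure D3:**
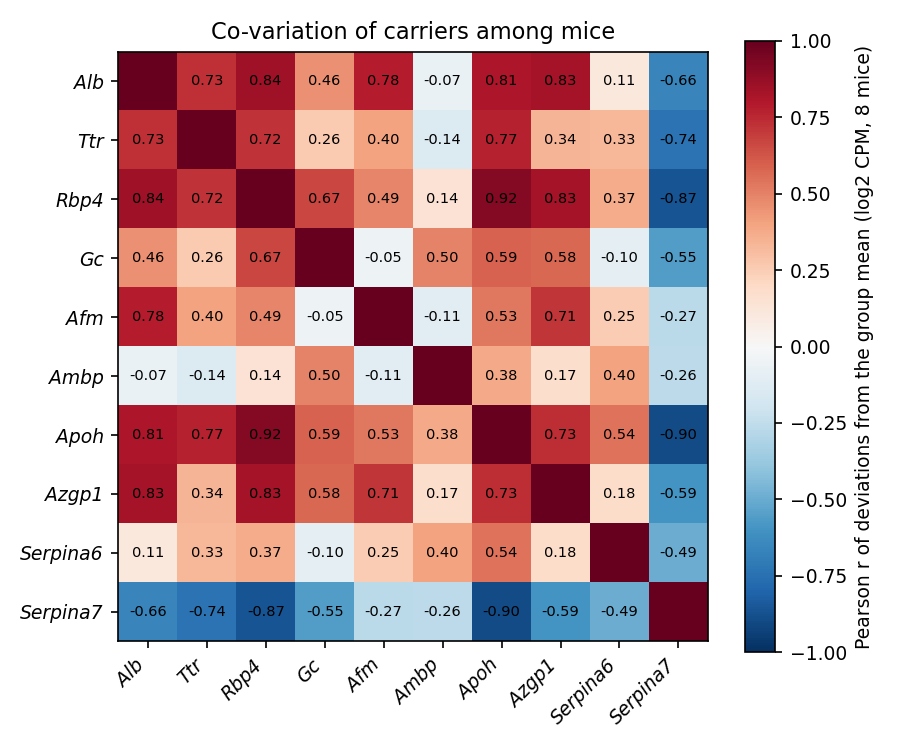
Pearson r of the deviations from the group mean in log2 CPM over 8 mice for every pair of carriers, red for positive and blue for negative. With all 8 mice the Serpina7 row is blue, with a median of -0.59, and the pairs among Alb, Ttr, Rbp4, Afm, Apoh and Azgp1 are red, but without the 2 farthest mice 3 of the Serpina7 pairs turn positive and 4 pairs of Afm turn negative.

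Particular mice carried much of that spread. IXA4 replicate 4 was below its group mean in 8 of 10 carriers and vehicle replicate 3 above it in 9, while IXA4 replicate 1 was above in 9. Among 6011 genes with a mean of at least 10 CPM, the 3 most like Alb in log2 CPM were Amy1 (r = 0.957), Pecr (0.954) and Zfyve19 (0.926), over 8 mice. For Ttr they were Ndufv2 (0.991), Ndufa4 (0.989) and Ndufb3 (0.989). For Ambp they were Fetub (0.967), Nat6 (0.967) and Yipf2 (0.956), and for Serpina7 Nvl (0.976), Nek6 (0.957) and Rrn3 (0.932). These r were picked as the highest of 6011 over 8 mice and were not tested. They also take in the difference between the groups. As deviations from the group means, r was 0.893 for Fetub with Ambp and 0.957 for Amy1 with Alb.

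Many positive acute phase genes rose in the same livers. Of 22 tested, 11 rose, 0 fell and all 22 had a positive log2 fold change, with a median of 0.99 beside -0.01 over all genes. Orm1, an orosomucoid that is itself a plasma drug and lipid carrier, was 2.85-fold higher (log2 fold change 1.51, SE 0.19, edgeR adjusted p = 0.0009). The hemoglobin scavenger Hp was 1.76-fold higher (0.81, SE 0.13, adjusted p = 0.0038), and C3, the most abundant that did not pass, differed by 0.48 on the log2 scale (adjusted p = 0.127). Without IXA4 replicate 2 C3 passed as higher (0.63, edgeR adjusted p = 0.00998). The summed level of the 22 genes was 43511 to 78353 CPM with IXA4 and 29444 to 33174 CPM with vehicle. The count depended on single libraries: it was 7 without IXA4 replicate 1, 5 without IXA4 replicate 3, IXA4 replicate 4 or vehicle replicate 3, and 4 without vehicle replicate 1 or 2, and it was 7 with no filter on low counts.

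**Figure D4:**
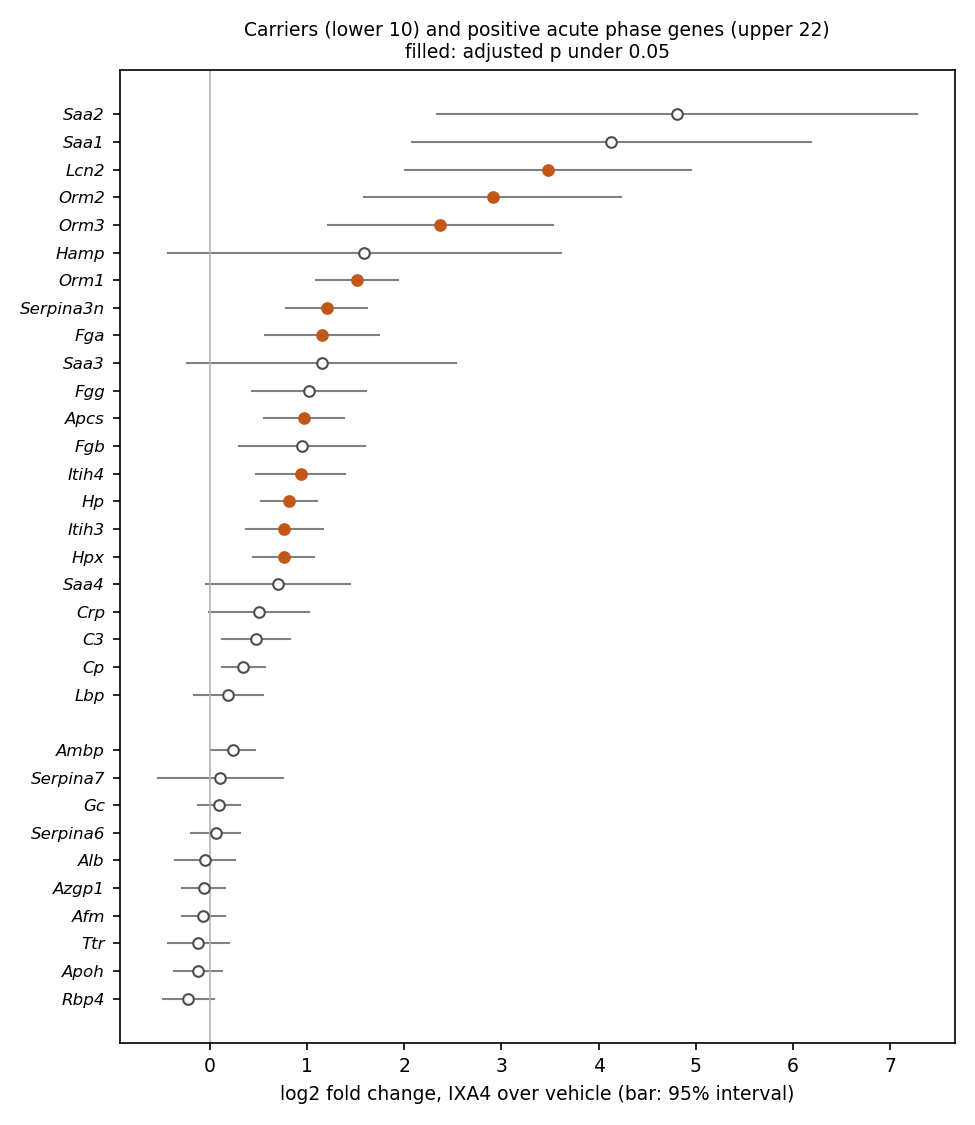
Log2 fold change of IXA4 over vehicle (x axis) with its 95% interval for the 10 carriers and for 22 positive acute phase genes, each row 1 gene, filled where the adjusted p was under 0.05. No carrier is filled and 11 acute phase genes are, all to the right of 0.

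Within each group the liver with the most Orm1 had the least Alb. Orm1 stood at 555.6, 497.9, 415.1 and 739.5 CPM in vehicle replicates 1 to 4 and at 1652, 1181, 1496 and 1975 CPM in IXA4 replicates 1 to 4. Replicate 4 was highest for Orm1 and lowest for Alb in both groups, and in the vehicle livers the order of Orm1 was the reverse of that of Alb throughout. Yet the IXA4 livers with 1181 to 1652 CPM of Orm1 had Alb at 90811 to 91234 CPM, above 2 of the vehicle livers. The pair was set side by side after the values were seen and was not tested. Other genes of the acute phase list did not all share the order of Orm1. Hp was also highest in replicate 4 of both groups (4210 CPM with vehicle, 7206 CPM with IXA4). Fgg was lowest of the vehicle livers in replicate 4 (2076 CPM) and highest of the IXA4 livers in replicate 3 (6662 CPM).

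**Figure D5:**
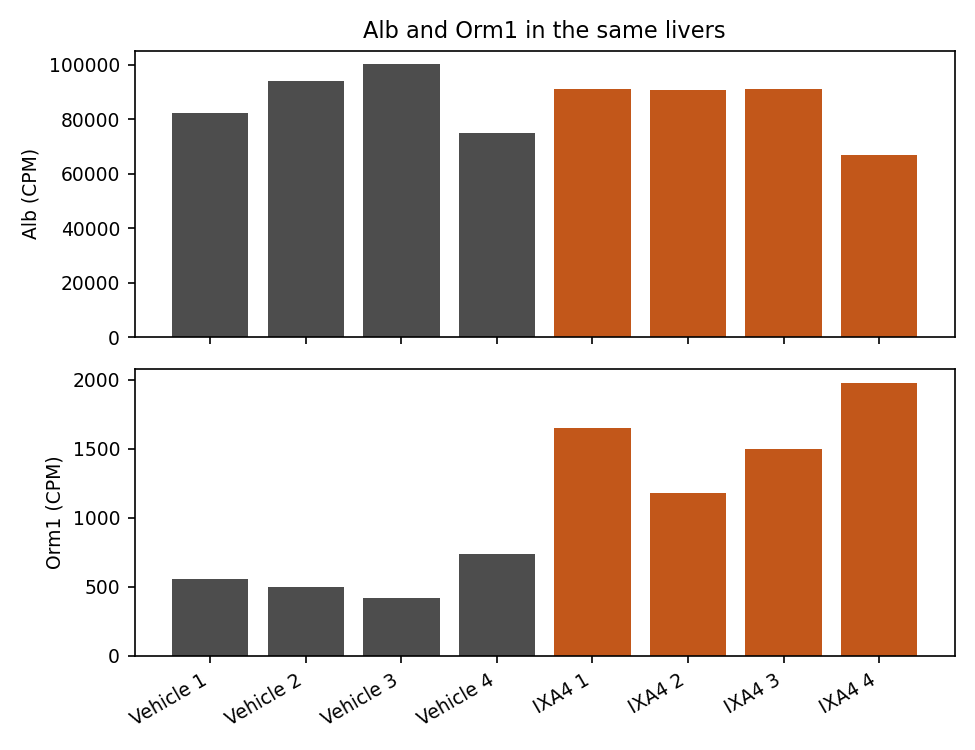
Alb CPM (upper bars) and Orm1 CPM (lower bars) in each of the 8 livers, with both y axes starting at 0. Alb is lowest in replicate 4 of each group (75076 with vehicle, 66961 with IXA4), where Orm1 is highest (739.5 and 1975). The pair was picked after the values were seen, and Fgg, of the same acute phase list, does not share the order of Orm1.

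Genes that act with the carriers were read from lists. Of 17 other plasma binding proteins tested 0 rose and 0 fell, with a median log2 fold change of 0.00, and Apoe, the most abundant, was at -0.23 (edgeR adjusted p = 0.322). Of 15 retinol handling genes 1 rose, Aldh1a2, a retinoic acid synthesizing enzyme, at 1.29 CPM with IXA4 and 0.197 CPM with vehicle (log2 fold change 2.68, adjusted p = 0.0136), while Aldh1a1 was at 0.11 (adjusted p = 0.631). Without vehicle replicate 2 Aldh1a2 no longer passed (2.60, adjusted p = 0.0546). Its vehicle values (0 to 0.379 CPM) were below the filter on low counts, so only its IXA4 values (0.859 to 1.75 CPM) let it be tested. With at least 10 counts required in every library it was not tested, and 0 retinol genes rose. None of 11 thyroid hormone handling genes passed (median log2 fold change -0.31), nor any of 3 for vitamin D or 10 for glucocorticoids. The bile acid and thyroid hormone transporter Slc10a1 was at -0.31 (adjusted p = 0.154) and Cyp27a1, a vitamin D hydroxylase, at -0.13 (adjusted p = 0.584). Tat, a liver enzyme known to be induced by glucocorticoids, was at -0.42 (adjusted p = 0.103). In DESeq2 Tat passed as lower (-0.42, adjusted p = 0.0380).

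Of 7 genes of albumin uptake and recycling 1 rose, Sparc, a matrix protein that binds albumin (log2 fold change 1.17, SE 0.22, edgeR adjusted p = 0.014), and B2m, the light chain of the neonatal Fc receptor that rescues albumin, was at 0.31 (adjusted p = 0.136). Fcgrt, the heavy chain of that receptor, was at -0.32 (SE 0.09, adjusted p = 0.0674), with all 4 IXA4 livers (159.6 to 190.8 CPM) below all 4 vehicle livers (mean 213 ± 11.3 CPM, SD), and was named after its values were seen. B2m passed as higher in DESeq2 (0.31, adjusted p = 0.0442) and when scaled to the hepatocyte markers (0.43, edgeR adjusted p = 0.0356). Sparc did not pass without IXA4 replicate 4 (1.16, adjusted p = 0.0508), and 2 genes of the list did without vehicle replicate 3. In the same livers 6 of 8 fibroblast markers rose, and whether the rise of Sparc concerned albumin handling was not tested. None of 6 genes of the albumin family and locus passed, Alb, Afm and Gc included, with the fetal family member Afp at 1.12 CPM with IXA4 and 0.983 CPM with vehicle. Of 14 serpin clade A genes tested 2 rose, Serpina3n (2.30-fold) and Serpina3g (1.87-fold), and Serpina1c was at a log2 fold change of 0.16 (adjusted p = 0.660). These genes are close copies, so their separate counts are uncertain. Of 8 lipocalins 4 rose: Lcn2 (3.48, SE 0.62, adjusted p = 0.0284) and the orosomucoids Orm1, Orm2 (adjusted p = 0.0358) and Orm3 (adjusted p = 0.0437). How reads were shared among the orosomucoid genes is not known. The carriers Rbp4 and Ambp of the same family did not pass. Orm1, Lcn2 and Serpina3n are also in the acute phase list, so these counts are not separate. The lipocalin count was 1 without any one of IXA4 replicates 1, 3 and 4 or vehicle replicates 1, 2 and 3, where Lcn2 kept a log2 fold change of 3.26 to 3.52 with an adjusted p of 0.0593 to 0.0778. The serpin count was 4 without IXA4 replicate 2. Of 20 hepatocyte transcription factors Foxa2 rose (0.63, adjusted p = 0.0139), Hlf fell (-0.70, adjusted p = 0.0017), and Cebpb was at 0.25 (adjusted p = 0.338). Foxa2 did not pass without vehicle replicate 2 (0.63, adjusted p = 0.0509), and 4 factors were higher without IXA4 replicate 2.

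Cell-type markers of the same livers were measured beside the carriers. Of 14 hepatocyte markers 0 passed, 2 with a positive and 12 with a negative log2 fold change (median -0.10), and their summed level was 16396 to 18998 CPM with IXA4 and 18566 to 20844 CPM with vehicle. Of 8 fibroblast markers 6 rose, Lum and Timp1 first, from a summed 44.6 to 76.0 CPM with vehicle to 188 to 420 CPM with IXA4. In 8 stellate markers 2 fell (Reln and Colec11), in 8 endothelial markers 2 fell (Kdr and Oit3) and in 5 cholangiocyte markers 2 rose (Spp1 and Krt19). Over all genes 0.990% fell and 3.64% rose. The log2 fold change was negative in 7 of 8 stellate markers (median -0.64) and 8 of 8 endothelial markers (median -0.62). Summed stellate markers were at 131 to 224 CPM with IXA4 and 238 to 311 CPM with vehicle. Summed endothelial markers overlapped, at 99.5 to 171 and 130 to 227 CPM. Krt19 lost its call without IXA4 replicate 2 or 3 or vehicle replicate 1, 2 or 4, and Oit3 without the same libraries, while 5 endothelial markers were lower without vehicle replicate 3. None of 8 Kupffer, 5 mesothelial, 3 leukocyte or 4 erythroid markers passed, nor the 1 adipocyte and 1 pancreas marker tested. Adipoq and Lep of adipocytes and Pnlip, Cpa1, Ins1 and Gcg of pancreas had no count in any library. In bulk liver fewer cells of a type and less RNA per cell cannot be told apart, and the part of these shifts in the carrier values was not tested. Scaling to the hepatocyte markers raised the median of all genes by 0.12 on the log2 scale and gave Alb a log2 fold change of 0.07.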

How the data were processed

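RNA from the livers of 8 DIO mice, 4 given IXA4 and 4 vehicle, was sequenced at BGI as single-end reads. The authors aligned the reads with DNAstar SeqManPro to NCBI mouse build 37 and quantified them with ArrayStar and QSeq. The deposited counts are whole numbers of reads per gene symbol (26166 symbols, 7170 with none). The sources used here do not give the annotation release, the strand setting or the handling of multi-mapping reads. A deposited table of the authors' comparison by DESeq, with fold changes and p-values, was not used.

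Count columns were assigned to groups from their headings, whose numbers do not name animals. The treated columns carry a numeric code and were taken as IXA4 because the only other heading is vehicle. Genes kept by filterByExpr (minimum count 10, minimum total 15) were fitted with edgeR 4.0.16 (TMM, robust quasi-likelihood F test) in R 4.3.3 with limma 3.58.1, and p-values were adjusted by Benjamini and Hochberg at 0.05. Standard errors were derived from the F statistic. DESeq2 1.42.0, other scalings and filters and each library left out were alternatives. Single genes were also compared by a two-sided exact permutation test of log2 CPM (prior count 2). The fit was tested on simulated data. Exon lengths came from GENCODE vM1, joining all exons.

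The 10 carriers and 22 further lists were chosen with earlier results of these data known. From each list, up to 2 genes of smallest p in each direction and the most abundant not passing were named, with the 3 genes most like a carrier for 4 carriers.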

Additional observations from a re-analysis of the deposited data

Results flagged for a closer look

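In 4 of the 20 sets of 4 mice, formed by the 10 carriers in each group, 1 mouse stood far from the other 3. The Dixon rule was used, which divides the gap to the nearest mouse by the whole range. Chance flags about 1 in 20 such sets when the sets are independent. The 20 sets here share the same 8 libraries, and all 4 flags fell on IXA4 replicate 4 or vehicle replicate 3. The count of 4 therefore cannot be judged against that chance rate. Alb in IXA4 replicate 4 was at 66961 CPM, and its gap to the nearest mouse was 0.983 of the whole range. Afm in the same mouse was at 216.4 CPM (0.877 of the range). Rbp4 in vehicle replicate 3 was at 4888 CPM (0.879) and Apoh in that mouse at 3558 CPM (0.838). The first pair were low values and the second pair high values. Orm1, a positive acute phase gene, was highest of the 8 livers in IXA4 replicate 4 (1975 CPM) and lowest in vehicle replicate 3 (415.1 CPM). The summed level of the 22 acute phase genes was also highest in IXA4 replicate 4 (78353 CPM). In vehicle replicate 3 that sum was 32384 CPM, inside the vehicle range of 29444 to 33174 CPM. C3 was the highest of the vehicle livers there (10529 CPM). A link to the flagged values was not tested.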

How the results depend on the processing

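Under 16 alternatives (8 of scaling, filter or tool and 8 that left out 1 library) no carrier passed the threshold, with a lowest adjusted p of 0.0829 for Ambp when scaled to the hepatocyte markers. No paired analysis was possible because the groups share fewer than 2 replicate numbers in the labels and the count columns do not name animals. The causes of the differences below were not tested.

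Scaling to the hepatocyte markers turned Alb to 0.070, Afm to 0.053, Azgp1 to 0.061 and Adh1, a hepatocyte marker, to 0.0347 on the log2 scale, and gave 627 genes higher and 40 lower, 94.0% of calls higher against 78.6% in the main fit. It also gave 2 other plasma binding proteins, 2 transcription factors, 2 albumin uptake genes and 1 leukocyte marker higher, and 1 endothelial marker lower. DESeq2 gave 256 genes lower, 1 other plasma binding protein, 2 transcription factors, 1 vitamin D gene, 2 uptake genes, 1 mesothelial and 1 leukocyte marker higher, and 1 thyroid, 2 glucocorticoid and 1 uptake gene lower. With no filter 7 positive acute phase genes, 2 lipocalins and 1 leukocyte marker were higher and 1 thyroid gene lower. With at least 10 counts in every library 0 retinol genes and 1 leukocyte marker were higher. Total counts gave 1 cholangiocyte marker, median-of-ratios scaling 1 leukocyte marker and no robust dispersion 2 transcription factors higher.

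Leaving out 1 library at a time, the log2 fold change ran from -0.12 to 0.049 for Alb, -0.11 to 0.0033 for Azgp1, -0.0082 to 0.12 for Serpina6, -0.076 to 0.26 for Serpina7 and -0.15 to 0.013 for Adh1. Genes higher ran from 261 (without vehicle replicate 1) to 613 (without IXA4 replicate 2), and genes lower from 43 to 162 under the same libraries. Without vehicle replicate 2 they were 271 and 49, without vehicle replicate 4 306 and 52, without IXA4 replicate 1 403 and 74, and without IXA4 replicate 3 349 and 72. Higher counts ran from 4 to 14 for positive acute phase genes, 0 to 4 for transcription factors, 0 to 1 for retinol, 0 to 1 for vitamin D, 0 to 2 for uptake, 2 to 4 for serpin clade A, 1 to 3 for lipocalins, 1 to 2 for cholangiocyte, 0 to 1 for mesothelial and 0 to 1 for leukocyte genes. Lower counts ran from 0 to 1 for retinol, thyroid and glucocorticoid genes and from 1 to 5 for endothelial markers. What depth limits was not tested for the carriers, whose lowest count in a library was 554 (Serpina7).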
